A study of Mus musculus with 38 samples.

Results

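KO cells of the Tcf21 lineage, sorted from visceral fat, were compared between mice fed a high-fat diet for 1 week (1W HFD) and mice aged 3 weeks (3W). The comparison held 7 of the 38 libraries of the series, chosen by their column names in the deposited table of KO libraries: KO 1W HFD replicates 1 and 2 and KO 3W replicates 1 to 5. The KO 3W mice ate a regular diet (LabDiet #5001) at 3 weeks of age. The KO 1W HFD mice ate Teklad #TD.06414 for 1 week from 6 weeks of age, so age, weaning and diet all differ between the groups and cannot be told apart. Per the labels, tamoxifen activated MerCreMer, a Cre recombinase that acts only once the drug is given, at 75 mg per kg body weight and day in adults or 100 µg per day in neonates. Where the genotype field of the series names a KO, it reads Tcf21 KO, so Tcf21 is taken as the deleted gene. The sources used here do not give the dose each group received, the Tcf21 alleles of the KO or the driver of MerCreMer. Each RNA library came from 5000 cells sorted by flow cytometry and labelled as Tcf21 lineage cells. Where these results needed wild-type (WT) cells, the 7 WT 3W and 4 WT 1W HFD libraries were used, and the 2 KO libraries after 12 weeks of the diet (12W HFD) and the 2 KO 3W chromatin libraries were set beside the results.

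Visceral fat grows from stromal progenitors that lie between the fat cells and along vessels. Young progenitors carry a growth programme that includes imprinted genes, which are read from one parental copy and are known to be silenced widely in organs as body growth slows, and the insulin-like growth factor (IGF) axis of ligands, receptors and binding proteins. Progenitors of older fat are known as sources of complement proteins, chemokines and matrix, and a subset marked by the surface peptidase Dpp4 lies in the interstitium. Tcf21, a helix-loop-helix transcription factor, marks visceral progenitors and is known to hold back their maturation.

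Expression was read as TPM, a transcript abundance scaled within each library. Changes are differences between group means of log2(TPM + 1) with their standard error (SE), which understate the change of low genes, and a gene was called where limma's p, adjusted by the Benjamini-Hochberg method over 15659 genes, was under 0.05. The 7 columns summed to 938593 to 956206 TPM, held 12005 to 12515 genes at 1 TPM or more, and correlated with each other at r = 0.901 to 0.959 across genes, which are not independent replicates. Read depth is unknown, and a listed 0 can be a failed estimate: mt-Nd3, a mitochondrial gene that every cell uses, was listed at 0 in both KO 1W HFD libraries. The genotype field of the labels reads WT for all 7 libraries, against their titles, and also differs from the title in 6 of the 11 WT libraries used here (22 of all 38). Groups follow the titles, so every KO and WT value rests on them. Whether replicates were separate animals is not given, so p-values measure the spread between libraries, which may be technical.

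Tcf21 itself was still read in every library. It lay at 20.01, 60.88, 21.88, 48.20 and 25.10 TPM in the KO 3W libraries and at 8.10 and 16.45 TPM in the KO 1W HFD libraries, so the groups did not overlap. The difference was -1.38 on the log2 scale, with a two-sided exact permutation p of 0.0952 against a smallest possible p of 0.0476. The WT 3W libraries ranged from 37.6 to 109 TPM (median 47.6), which overlaps the KO 3W range. By the pair numbers of the titles, each KO 3W library lay below the WT 3W libraries of its pair. In pairs 1 to 5, in order, WT lay at 37.61, 109.23, 46.18 and 47.56, 83.8 and 46.97 TPM. The ranges alone do not settle which label is right, and the paired values were not tested. The labels do not say which part of the gene the KO removes. Markers of fibroblasts and adipose progenitors, the labelled kind of cell, were present: none of the 20 was listed at 0 in any of the 7 libraries, and their mean log2(TPM + 1) lay between 8.05 and 8.73 at 3W and at 8.73 and 9.14 after 1W HFD. Pdgfra, the receptor that marks these cells, lay at 71.9 to 179 TPM at 3W and at 110.0 and 96.9 TPM after 1W HFD (log2 change -0.26 ± 0.27 SE, limma adjusted p = 0.802).

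Across the 15659 genes tested, 67 were higher and 68 lower after 1W HFD, together 0.862% of the genes (0.428% higher and 0.434% lower). A further view without adjustment found 1800 genes at limma p under 0.05, and the median log2 change over all genes was 0.03. Of all genes tested 53.1% had a positive and 46.4% a negative change. Counts of list members below are to be read against these shares. The 2 KO 1W HFD libraries lay outside the range of the 5 KO 3W libraries in 66 of the 67 higher and 68 of the 68 lower genes, against 8.53% and 5.77% of all genes tested; the genes were called on these same libraries, so this describes the calls and does not support them. The same holds wherever called genes are said below not to overlap, and the 12 genes plotted per direction were also chosen for it. Changes of called genes ranged from 1.02 to 6.56 upward and from 0.73 to 5.90 downward on the log2 scale. The spread came from all 29 RNA libraries; fitted on the 7 libraries alone, 40 genes were higher and 9 lower, of which 14 and 7 were among the calls above. Calls lost in this fit, or in a fit of the 9 KO libraries, are given below for some genes only. Of 53 called genes tried, 5 kept their call in every setting. In the main fit without KO 3W replicate 1 the counts were 130 and 142. Without the other libraries in turn they ran from 30 to 54 and from 26 to 63; where a KO 1W HFD library was left out, the lone library was assumed to vary like the other groups.

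The genes that fell were led by Dlk1, a membrane and secreted protein of preadipocytes that restrains fat cell formation and is expressed from the paternal copy. Dlk1 (ENSMUSG00000040856, mm10 chromosome 12, 109452823 to 109463336) lay at 33.8, 155, 67.6, 101 and 107 TPM in KO 3W cells and at 0.11 and 0.78 TPM after 1W HFD. Every KO 3W library was far above both KO 1W HFD libraries. The log2 change was -5.90 ± 0.49 SE (limma adjusted p = 1.99e-08), and the call held under every setting tried and without each library. Igf2, the imprinted fetal growth factor of the IGF axis (ENSMUSG00000048583, chromosome 7, 142650766 to 142666816), lay at 25.2, 118, 72.3, 84.0 and 34.6 TPM at 3W. After 1W HFD it was at 2.40 TPM in replicate 1 and listed at 0 in replicate 2 (-4.99 ± 0.62 SE, adjusted p = 2.98e-05). Its groups did not overlap either, and its call was lost only in a fit of the 7 libraries compared (adjusted p = 0.0639). Of 18 imprinted growth genes tested, 4 fell, none rose and 16 had a negative change, with a median of -1.31 against 0.03 over all genes. Over all genes 0.434% fell and 46.4% had a negative change. The other fallen members were Zim1 (2.81 to 8.63 TPM at 3W, 0.90 and 0 after 1W HFD, change -2.18) and Peg3 (61.5 to 232 TPM, then 43.2 and 24.1, change -1.79), zinc finger genes that neighbour each other on chromosome 7. Cdkn1c, an imprinted inhibitor of cell division, did not pass: it lay at 211 to 399 TPM at 3W and at 96.4 and 109 TPM after 1W HFD (-1.47, adjusted p = 0.0571). Peg10 was the only tested member with a positive change (0.26). The call of Zim1 was lost without KO 1W HFD replicate 2 (adjusted p = 0.303), and that of Peg3 without KO 3W replicate 3, 4 or 5 or either KO 1W HFD library (up to 0.497).

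**Figure D1:**
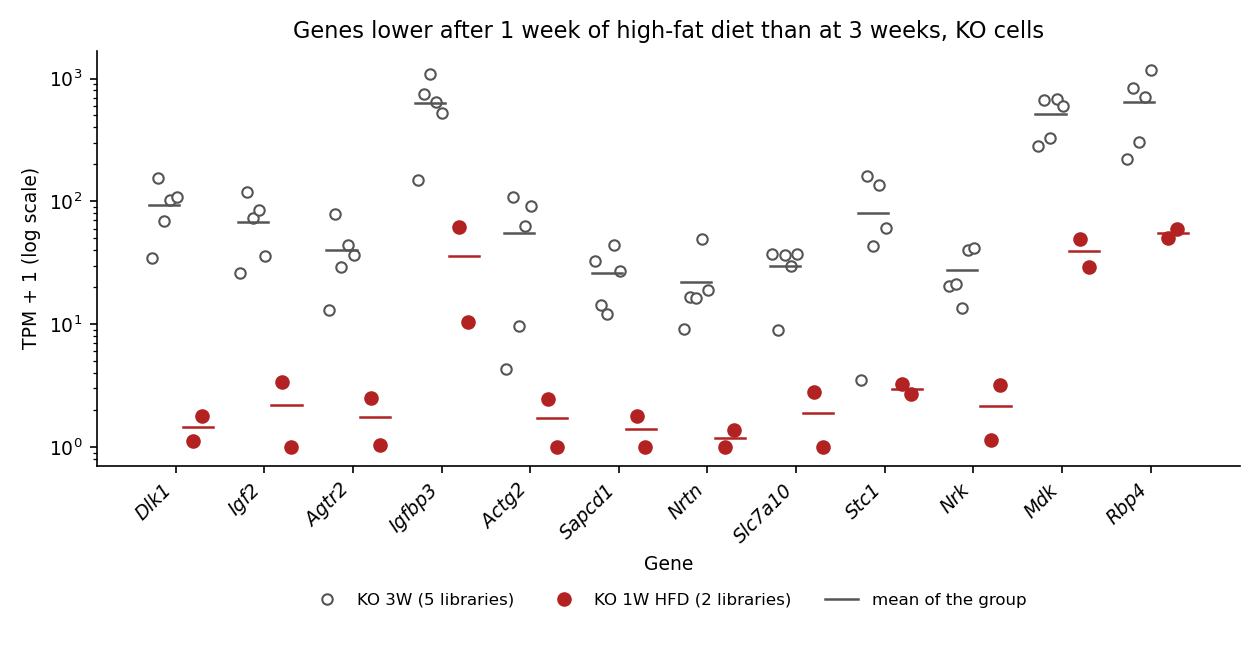
TPM + 1 on a log axis for the 12 genes with the largest fall among called, named genes that reach a mean of 5 TPM and do not overlap (immunoglobulin and haemoglobin genes left out), in KO 3W libraries (open circles, 5 each) and KO 1W HFD libraries (red, 2 each), with lines at group means. By this choice both KO 1W HFD libraries lie below all 5 KO 3W libraries in each of the 12 genes. The distance is smallest for Stc1 and Actg2, whose KO 3W replicate 1 lies low.

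Beside Igf2, 1 binding protein and 1 modifier of the IGF axis fell. Igfbp3, the main carrier of IGFs in blood, lay at 149, 748, 1088, 647 and 523 TPM at 3W and at 60.4 and 9.35 TPM after 1W HFD (-4.39 ± 0.74 SE, limma adjusted p = 0.00258). Stc1, a secreted glycoprotein that inhibits the proteases which free IGFs, lay at 2.52, 159.8, 42.2, 135 and 59.9 TPM and then at 2.23 and 1.72 TPM (-3.95 ± 0.85 SE, adjusted p = 0.0190). KO 3W replicate 1 was thus close to the later level of Stc1, and the lowest of its group for Igfbp3. Of 21 tested members of the axis 3 fell, none rose and 17 had a negative change (median -0.48). The shares over all genes were 0.434% fallen and 46.4% negative. The receptors Igf1r (-0.30) and Igf2r (-0.09) and the ligand Igf1 (0.97) did not pass. Igf1, the postnatal ligand, lay at 131 to 312 TPM at 3W and at 274 and 540.2 TPM after 1W HFD, so its groups overlapped. Igfbp3 lost its call without KO 1W HFD replicate 2 (adjusted p = 0.188), and Stc1 without KO 3W replicate 2 or 4 or either KO 1W HFD library (up to 0.197).

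Other secreted growth factors fell as well. Mdk, midkine, a heparin-binding growth factor of embryonic tissue (ENSMUSG00000027239, chromosome 2, 91929805 to 91932297), lay at 284, 664, 327, 678 and 600.4 TPM at 3W and at 48.5 and 28.3 TPM after 1W HFD (-3.65 ± 0.44 SE, limma adjusted p = 2.80e-05). Its relative Ptn, pleiotrophin, lay at 51.0 to 161 TPM and then at 12.0 and 6.86 TPM (-3.08 ± 0.63 SE, adjusted p = 0.0152). Neither gene showed overlap between the groups. Nrtn, neurturin, a survival factor of neurons, lay at 8.11 to 48.8 TPM at 3W, was listed at 0 in KO 1W HFD replicate 1 and lay at 0.38 TPM in replicate 2 (-4.0 ± 0.79 SE, adjusted p = 0.0114). Angptl1, an angiopoietin-like protein, lay at 95.0 to 392 TPM and then at 29.9 and 22.7 TPM (-2.55 ± 0.54 SE, adjusted p = 0.0167). Of 39 growth factor ligands and receptors of stromal cells tested, Mdk, Ptn and Angptl1 fell, none rose and 24 had a negative change. Over all genes 0.434% fell and 46.4% had a negative change. The list ran from -3.65 to 2.11 with a median of -0.13. Mdk held its call under every setting. Ptn, Nrtn and Angptl1 lost theirs without KO 1W HFD replicate 1 (adjusted p = 0.0603, 0.137 and 0.0933) and without replicate 2 (0.229, 0.0708 and 0.217).

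A receptor, a transporter and a kinase were also among the 12 largest falls so chosen. Agtr2, the type 2 angiotensin receptor of fetal mesenchyme, lay at 12.0, 77.8, 28.1, 43.2 and 35.5 TPM at 3W and at 1.5 and 0.03 TPM after 1W HFD (-4.42 ± 0.62 SE, limma adjusted p = 0.000280). Nrk, a Nik-related kinase known from placenta and embryo, lay at 12.6 to 40.9 TPM and then at 0.14 and 2.17 TPM (-3.72 ± 0.56 SE, adjusted p = 0.000683). Sapcd1 lay at 11.2 to 43.2 TPM, then at 0.80 TPM and listed at 0 (-4.12 ± 0.59 SE, adjusted p = 0.000283). The 3 genes did not overlap between groups; Agtr2 and Sapcd1 kept their calls without each library but lost them in a fit of the 7 libraries compared (adjusted p = 0.0810 and 0.0608), Agtr2 also in one of the 9 KO libraries (0.0631). Nrk lost its call without KO 1W HFD replicate 1 (0.0597) and in the fit of 7 (0.0847). Slc7a10, a transporter of small neutral amino acids found in fat cells, lay at 36.6, 7.89, 35.8, 28.5 and 36.0 TPM and then at 1.80 TPM and listed at 0 (-3.99 ± 0.71 SE, adjusted p = 0.00423). KO 3W replicate 2 was low for this gene but still above both later libraries. The call of Slc7a10 was lost in the fits of 9 and of 7 libraries (limma adjusted p = 0.0581 and 0.106). Without KO 1W HFD replicate 2 its change was -3.25 and the call was lost as well. Itm2a and Prlr, which were chosen after their values were seen, fell too. Itm2a, a membrane protein of early mesenchymal differentiation, lay at 1059 to 1816 TPM at 3W and at 178 and 125 TPM after 1W HFD (-3.24 ± 0.38 SE, adjusted p = 2.36e-05). Prlr, the prolactin receptor, lay at 38.5 to 78.2 TPM and then at 6.49 and 5.00 TPM (-3.11 ± 0.50 SE, adjusted p = 0.00145). Both kept their calls under every setting tried.

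Among matrix genes the direction was mixed. Mfap2, which codes for a microfibril glycoprotein of elastic fibres, lay at 2030.1, 1728, 1705, 3734 and 2214 TPM at 3W and at 565 and 628 TPM after 1W HFD (-1.87 ± 0.36 SE, limma adjusted p = 0.00889), with no overlap. Col11a1, a fibrillar collagen of young connective tissue, lay at 2.42 to 7.60 TPM and then at 0.04 and 0.05 TPM (-2.25, adjusted p = 0.0113). Col16a1, a fibril-associated collagen, lay at 42.7 to 118 TPM and then at 17.6 and 25.4 TPM (-1.81, adjusted p = 0.0160). Col8a1, a short-chain collagen of vessel walls and injured tissue, went the other way, from 0.76 to 3.93 TPM at 3W to 26.2 and 29.8 TPM after 1W HFD (3.16 ± 0.75 SE, adjusted p = 0.0386). Of 62 collagens and structural matrix genes tested these 3 fell and 1 rose, 25 changes were positive and 37 negative, and the median was -0.12. Over all genes 0.434% fell, 0.428% rose and 46.4% of changes were negative. None of 32 collagen-processing enzymes and none of 39 matrix proteases and inhibitors passed. Among the latter Mmp16, a membrane metalloproteinase, lay at 5.21 to 28.1 TPM and then at 2.15 and 3.28 TPM (-2.12, adjusted p = 0.0648). Mfap2, Col11a1, Col16a1 and Col8a1 lost their calls without KO 1W HFD replicate 1 (adjusted p = 0.106, 0.0997, 0.259 and 0.224) and without replicate 2 (0.0689, 0.1, 0.0649 and 0.277); Col8a1 also did so without KO 3W replicate 2 (0.0926) or 5 (0.073).

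In each of 3 lists of fat cell genes 1 member fell and none rose. Rbp4, the plasma carrier of retinol and an adipokine, lay at 219, 834, 303, 708 and 1181 TPM at 3W and at 49.5 and 58.7 TPM after 1W HFD (-3.30 ± 0.69 SE, limma adjusted p = 0.0158). Klf5, a zinc finger factor that acts early in fat cell formation, lay at 11.9 to 45 TPM and then at 2.61 and 7.03 TPM (-2.43 ± 0.54 SE, adjusted p = 0.0237). Acot1, an acyl-CoA thioesterase that shares sequence with neighbouring thioesterase genes and is therefore uncertain, lay at 9.47 to 50.8 TPM and then at 2.12 and 1.98 TPM (-2.90, adjusted p = 0.0488). In none of these genes did the groups overlap. Of 26 adipogenic transcription factors tested Klf5 fell and none rose (median -0.41), of 32 lipid storage and adipokine genes Rbp4 fell and none rose (median -0.34), and of 25 fatty acid oxidation genes Acot1 fell and none rose (median 0.01), where 0.434% of all genes fell. Pparg, the master factor of fat cells, lay at 79.4, 23.4, 29.4, 19.4 and 34.2 TPM at 3W and at 32.9 and 13.9 TPM after 1W HFD, overlapping (-0.58 ± 0.58 SE, adjusted p = 0.791); without KO 1W HFD replicate 2 the change was 0.01. None of 21 fatty acid and triglyceride synthesis genes or 25 cholesterol synthesis genes passed, with medians of 0.05 and 0.32. Rbp4 lost its call without KO 1W HFD replicate 1 or 2 (adjusted p = 0.170 and 0.116), Klf5 without KO 3W replicate 2 or KO 1W HFD replicate 1 (0.0671 and 0.385), and Acot1 without KO 3W replicate 2, 3 or 4 or either KO 1W HFD library (up to 0.302).

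One contractile gene fell, and its level at 3W varied with the library. Actg2, the smooth muscle gamma actin, lay at 3.35, 107, 8.66, 61.8 and 91.2 TPM at 3W, then at 1.44 TPM and listed at 0 (-4.29 ± 1.06 SE, limma adjusted p = 0.0488). KO 3W replicates 1 and 3 were thus near the later level, and the call was lost without KO 3W replicate 2, 4 or 5 or either KO 1W HFD library (adjusted p up to 0.415). None of 17 pericyte and smooth muscle markers passed, 11 had a negative change, against 46.4% of all genes, and the median was -1.18. Their mean log2(TPM + 1) was 2.71, 5.14, 3.84, 4.41 and 4.55 at 3W and 3.42 and 2.77 after 1W HFD, so the groups overlapped. Their summed level was 665 to 3070 TPM at 3W and 517 and 400 TPM after 1W HFD, and their part in the values of contractile genes was not tested. In bulk RNA of sorted cells, fewer cells of a type and less RNA per cell cannot be told apart.

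Promoters of the fallen genes were open at 3W. RefSeq promoter windows on GRCm38.p6, the assembly of mm10, cover 300 bases, of which 250 lie before the start of transcription. At least 1 window was found for 48 of the 68 fallen genes. In 47 of the 48 (97.9%) a KO 3W ATAC-seq peak, a stretch of open chromatin, covered at least 1 base of a window in both libraries. A gene with several windows counted if any of them was covered, as for Igf2, whose window 1 of 4 had no peak. The share over all genes with a window was 87.8% (9935 of 11311), and 97.4% among genes at a KO 3W mean of 5 TPM or more, where 45 of 46 fallen genes had a peak (97.8%), so the share lay close to that of other genes expressed at 3W. The exception was Agtr2, whose window had no peak in either library although the gene was read at 12.0 to 77.8 TPM. The window of Dlk1 was overlapped by peaks at 14.2-fold and 13-fold enrichment in the authors' lists. In replicate 2 the Dlk1 peak began at 109452831, after the start of transcription, so it covered none of the 250 bases before it. The window of Nrtn was covered by peaks at 40.3-fold and 42.8-fold. The 250 bases before the start of these 3 genes are shown 5′ to 3′ on the gene's strand, chosen among the 12 largest falls plotted above: Dlk1 and Agtr2 have the smallest p of those with a single window, and Nrtn is the next with a motif match. Capitals mark matches, on either strand, to the TATA box TATAAA, to the E-box core that helix-loop-helix factors can bind, CAGCTG, to C/EBP half-sites, TTGCNNAA, and to the STAT palindrome, TTCNNNGAA.
Dlk1 promoter, chr12:109452573-109452822, plus strand: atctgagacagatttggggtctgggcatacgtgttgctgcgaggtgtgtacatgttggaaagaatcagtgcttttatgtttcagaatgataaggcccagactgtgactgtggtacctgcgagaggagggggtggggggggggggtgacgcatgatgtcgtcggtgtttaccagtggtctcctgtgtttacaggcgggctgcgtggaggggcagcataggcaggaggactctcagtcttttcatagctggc
Agtr2 promoter, chrX:21484374-21484623, plus strand: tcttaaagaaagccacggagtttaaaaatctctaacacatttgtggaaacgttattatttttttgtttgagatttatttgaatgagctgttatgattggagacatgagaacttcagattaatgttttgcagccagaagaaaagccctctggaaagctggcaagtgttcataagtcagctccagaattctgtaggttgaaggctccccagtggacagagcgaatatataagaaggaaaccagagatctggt
Nrtn promoter, chr17:56757549-56757798, minus strand: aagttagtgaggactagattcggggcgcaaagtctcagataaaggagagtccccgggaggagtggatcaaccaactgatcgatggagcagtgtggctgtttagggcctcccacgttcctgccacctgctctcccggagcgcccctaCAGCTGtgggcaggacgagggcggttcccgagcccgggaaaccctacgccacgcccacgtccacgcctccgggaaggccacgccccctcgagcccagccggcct
Only Nrtn held a match, CAGCTG 104 bases before its start. Of the 48 fallen genes 20.8% held CAGCTG, 18.8% TTGCNNAA, 10.4% TATAAA and 6.25% TTCNNNGAA, against 14.6%, 9.28%, 8.58% and 7.28% of all genes with a window. A gene with several windows counted if any of them held the motif. A match of letters is a description and not a bound site.

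The genes that rose had other roles. Hsd11b1, the enzyme that turns inactive glucocorticoid into its active form inside fat tissue (ENSMUSG00000016194, chromosome 1, 193221634 to 193264075), lay at 72.1, 72.3, 62.1, 48.3 and 49.6 TPM at 3W and at 668 and 452 TPM after 1W HFD (3.17 ± 0.70 SE, limma adjusted p = 0.0237). The KO 3W libraries lay close together and far below both later ones. None of 26 glucocorticoid and circadian response genes passed, and their median was 0.05. Car4, a carbonic anhydrase anchored to the cell surface, lay at 0 to 4.92 TPM and then at 48.6 and 17.9 TPM (3.53 ± 0.73 SE, adjusted p = 0.0158). Dmkn, dermokine, a secreted protein known from epithelia, lay at 2.55, 0, 0, 0.94 and 3.43 TPM and then at 26.0 and 84.0 TPM (4.60 ± 0.84 SE, adjusted p = 0.00484). Prg4, the lubricating proteoglycan of joints and serous surfaces, lay at 0.17 to 3.93 TPM and then at 6.33 and 133 TPM (3.73, adjusted p = 0.0397). Chl1, a neural adhesion molecule, lay at 0 to 0.73 TPM and then at 5.22 and 23.8 TPM (3.37, adjusted p = 0.0275). The groups of these 5 genes did not overlap, but the 2 later libraries differed widely for Prg4 and Chl1. Hsd11b1 lost its call without KO 3W replicate 4 (adjusted p = 0.0509) or either KO 1W HFD library (0.266 and 0.119), Car4 without KO 1W HFD replicate 1 (0.298), Dmkn without KO 1W HFD replicate 2 (0.175), Prg4 without KO 3W replicate 2, 4 or 5 or KO 1W HFD replicate 2 (up to 0.777), and Chl1 without KO 3W replicate 2 or 4 or KO 1W HFD replicate 2 (up to 0.482).

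**Figure D2:**
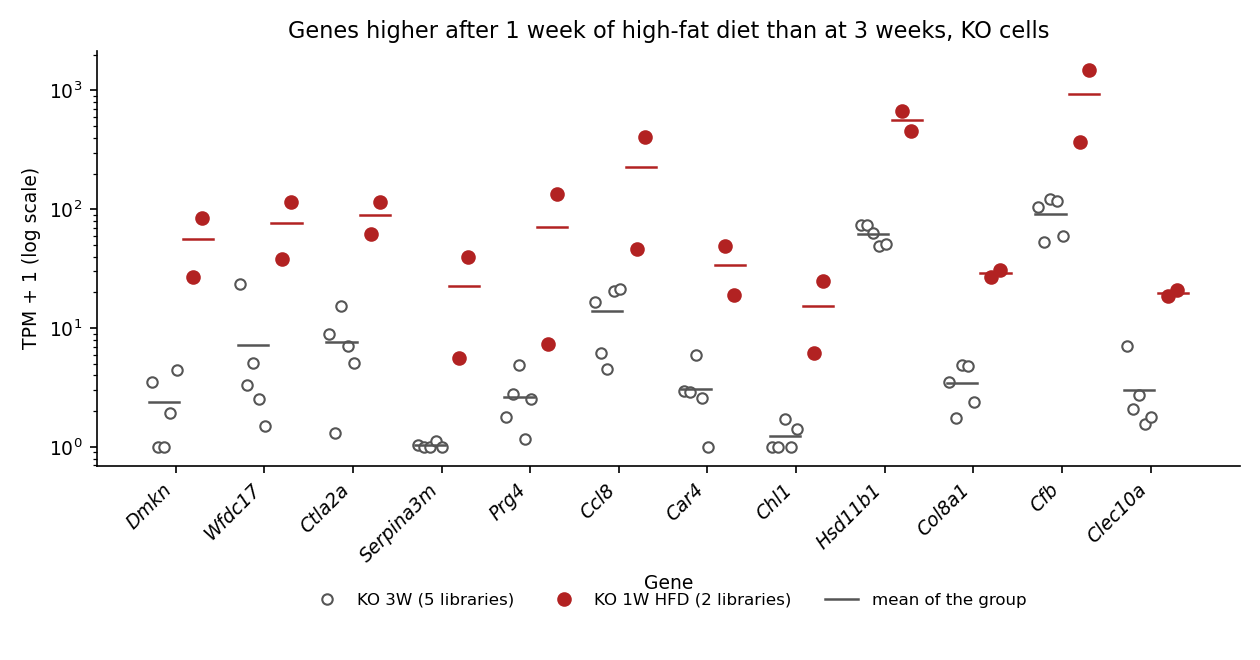
TPM + 1 on a log axis for the 12 genes with the largest rise among called, named genes that reach a mean of 5 TPM and do not overlap (immunoglobulin genes such as Igha and Ighv2-6-8, and haemoglobin genes, left out), in KO 3W libraries (open circles, 5 each) and KO 1W HFD libraries (red, 2 each), with lines at group means. By this choice both KO 1W HFD libraries lie above all KO 3W libraries in each gene. They lie closest for Wfdc17, Prg4 and Ccl8, whose KO 1W HFD replicate 1 lies near the highest KO 3W library.

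Of 26 complement genes tested 5 rose and 1 fell, where the share over all genes was 0.428% and 0.434%. In all, 22 had a positive change and the median was 1.38. Cfb, the protease of the alternative pathway, lay at 103, 52.5, 122, 116 and 59.0 TPM at 3W and at 367 and 1496 TPM after 1W HFD (3.10 ± 0.74 SE, limma adjusted p = 0.0394). C3, the central component cleaved by all pathways, lay at 175 to 582 TPM and then at 969 and 1661 TPM (2.05 ± 0.51 SE, adjusted p = 0.0488). Cd55, a membrane inhibitor of complement, lay at 139 to 346 TPM and then at 403 and 733 TPM (1.44, adjusted p = 0.0386). Both libraries after 1W HFD were above all KO 3W libraries for these genes. C1qc, a chain of C1q made by macrophages, rose from 6.37 to 31.6 TPM at 3W to 58.4 and 109 TPM (2.48, adjusted p = 0.0293), and C5ar1, the receptor of C5a on myeloid cells, from 0.03 to 1.99 TPM to 4.28 and 16.7 TPM (2.29, adjusted p = 0.0466). Masp1, a protease of the lectin pathway, fell from 1.00 to 11.2 TPM to 0.54 TPM and a listed 0 (-2.45, adjusted p = 0.0488). Cfb lost its call without KO 3W replicate 2, 4 or 5 or KO 1W HFD replicate 2 (adjusted p up to 0.577), C1qc without KO 3W replicate 2 or 5 or either KO 1W HFD library (up to 0.369), C5ar1 without KO 3W replicate 2 or 4 or KO 1W HFD replicate 2 (up to 0.659), C3 without KO 3W replicate 2, 4 or 5 or either KO 1W HFD library (up to 0.464), and Cd55 and Masp1 without any 1 of the 7 libraries other than KO 3W replicate 1 (up to 0.535 and 0.400).

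Acute-phase genes differed between the 2 later libraries. Steap4, a metalloreductase induced by inflammation, lay at 165 to 292 TPM at 3W and at 573 and 784 TPM after 1W HFD (1.60 ± 0.37 SE, limma adjusted p = 0.0337), and was the only called gene of the 17 tested, of which 15 had a positive change (median 1.27). Saa3, serum amyloid A of fat and macrophages, lay at 1.28, 0.24, 86.0, 8.03 and 9.94 TPM and then at 20.4 and 3825 TPM, and did not pass (5.25 ± 1.64 SE, adjusted p = 0.140). KO 1W HFD replicate 2 alone was high. Serpina3m, a protease inhibitor of a family with near-identical copies whose values are uncertain, lay at 0 to 0.12 TPM and then at 4.65 and 38.7 TPM (3.86 ± 0.69 SE, adjusted p = 0.00427). Ccl8, a chemokine that draws monocytes, lay at 15.4, 5.15, 3.50, 19.7 and 20.4 TPM and then at 45.6 and 402 TPM (3.57 ± 0.83 SE, adjusted p = 0.0349), and was the one called member of 52 chemokines and cytokines tested (43 positive, median 0.55). None of 43 interferon response genes passed, 39 of them with a positive change (median 0.63). For these 3 lists the shares over all genes were 0.428% risen and 53.1% positive. Steap4 lost its call without KO 3W replicate 2 or 4 or either KO 1W HFD library (adjusted p up to 0.355), Serpina3m without KO 1W HFD replicate 2 (0.292), and Ccl8 without KO 3W replicate 2 or 3 or KO 1W HFD replicate 2 (up to 0.662).

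Of 25 markers of Dpp4-type interstitial progenitors, 3 rose, none fell and 18 had a positive change, with a median of 1.00. The shares over all genes were 0.428% risen and 53.1% positive. Dpp4 itself lay at 46.4, 11.8, 22, 14.9 and 10.3 TPM at 3W and at 96.4 and 82.1 TPM after 1W HFD (2.24 ± 0.55 SE, limma adjusted p = 0.0471). Efemp1, fibulin 3 of the matrix, lay at 693, 447, 580.0, 432 and 338 TPM and then at 1134 and 1157 TPM (1.24 ± 0.28 SE, adjusted p = 0.0237). Cd55, given above among complement genes, was the third. All 3 lay higher in both later libraries than in every KO 3W library. Pi16, another marker of this subset, lay at 312 to 931 TPM and then at 1117 and 1305 TPM without passing (1.00 ± 0.75 SE, adjusted p = 0.677). The mean log2(TPM + 1) of the list was 6.88, 5.57, 6.02, 5.88 and 6.05 at 3W and 6.80 and 7.03 after 1W HFD, so KO 3W replicate 1 lay within the later range. Of 29 markers of committed preadipocytes Steap4 rose and Dlk1 fell (median 0.12). Efemp1 lost its call without KO 3W replicate 2, 4 or 5 or either KO 1W HFD library (adjusted p up to 0.204), and Dpp4 without any 1 of the 7 libraries other than KO 3W replicate 1 (up to 0.315).

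Macrophage markers were the list with the highest median. Of 26 tested 6 rose, none fell and 23 had a positive change (median 2.08). Over all genes 0.428% rose and 53.1% had a positive change. Lyz2, lysozyme of myeloid cells, lay at 140.2, 27.7, 16.7, 20.3 and 48.6 TPM at 3W and at 255 and 308 TPM after 1W HFD (2.90 ± 0.64 SE, limma adjusted p = 0.0227). Mrc1, the mannose receptor, lay at 0.84 to 2.93 TPM and then at 9.63 and 19.4 TPM (2.45, adjusted p = 0.0131), and Cd163, the haemoglobin scavenger receptor, at 0 to 0.57 TPM and then at 3.68 and 4.31 TPM (2.04, adjusted p = 0.0468). C1qc, Ctss and Fcgr3 were the other called members. Clec10a, a lectin of macrophages and dendritic cells outside the list, lay at 0.55 to 6.02 TPM and then at 17.5 and 19.8 TPM (2.93, adjusted p = 0.0158), and Wfdc17, a secreted protein of activated macrophages, at 0.49 to 22.3 TPM and then at 37.0 and 113 TPM (3.93, adjusted p = 0.0488). Cd68 (8.84 to 15.7 TPM, then 27.2 and 37.2) and Adgre1 (0.11 to 3.04 TPM, then 11.0 and 10.4) did not pass (adjusted p = 0.174 and 0.0519). The summed level of the 26 markers was 121 to 433 TPM at 3W and 716 and 1100 TPM after 1W HFD, and 1 to 5 and then 1 and 2 of them were listed at 0. Whether RNA of macrophages among the sorted cells had a part in the rises of C1qc, C5ar1, C3, Cfb, Ccl8 and class II genes was not tested. Mrc1 lost its call without KO 1W HFD replicate 2 (adjusted p = 0.280), Clec10a without either KO 1W HFD library (0.110 and 0.162), Lyz2 without KO 3W replicate 2 or 4 or either KO 1W HFD library (up to 0.229), and Cd163, Fcgr3 and Wfdc17 without any 1 of the 7 libraries other than KO 3W replicate 1 (up to 0.314, 0.498 and 0.490).

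Genes of class II antigen presentation include both surface molecules and the proteases that prepare their peptides. All 14 tested had a positive change (median 1.68), and 2 rose, both lysosomal proteases. Among all genes 53.1% had a positive change and 0.428% rose. Lgmn, legumain, lay at 121, 81.0, 72.9, 113 and 74.6 TPM at 3W and at 235 and 382 TPM after 1W HFD (1.72 ± 0.36 SE, limma adjusted p = 0.0158), and Ctss, cathepsin S, at 5.42 to 11.6 TPM and then at 39.6 and 51.0 TPM (2.42 ± 0.59 SE, adjusted p = 0.0468). Neither overlapped between groups. Cd74, the invariant chain, lay at 32.1 to 374 TPM and then at 748 and 492 TPM without passing (2.33, adjusted p = 0.238). Of 23 class I presentation genes none passed and 20 had a positive change (median 0.55). Lgmn lost its call without KO 1W HFD replicate 2 (adjusted p = 0.312) and Ctss without any 1 of the 7 libraries other than KO 3W replicate 1 (up to 0.345).

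**Figure D3:**
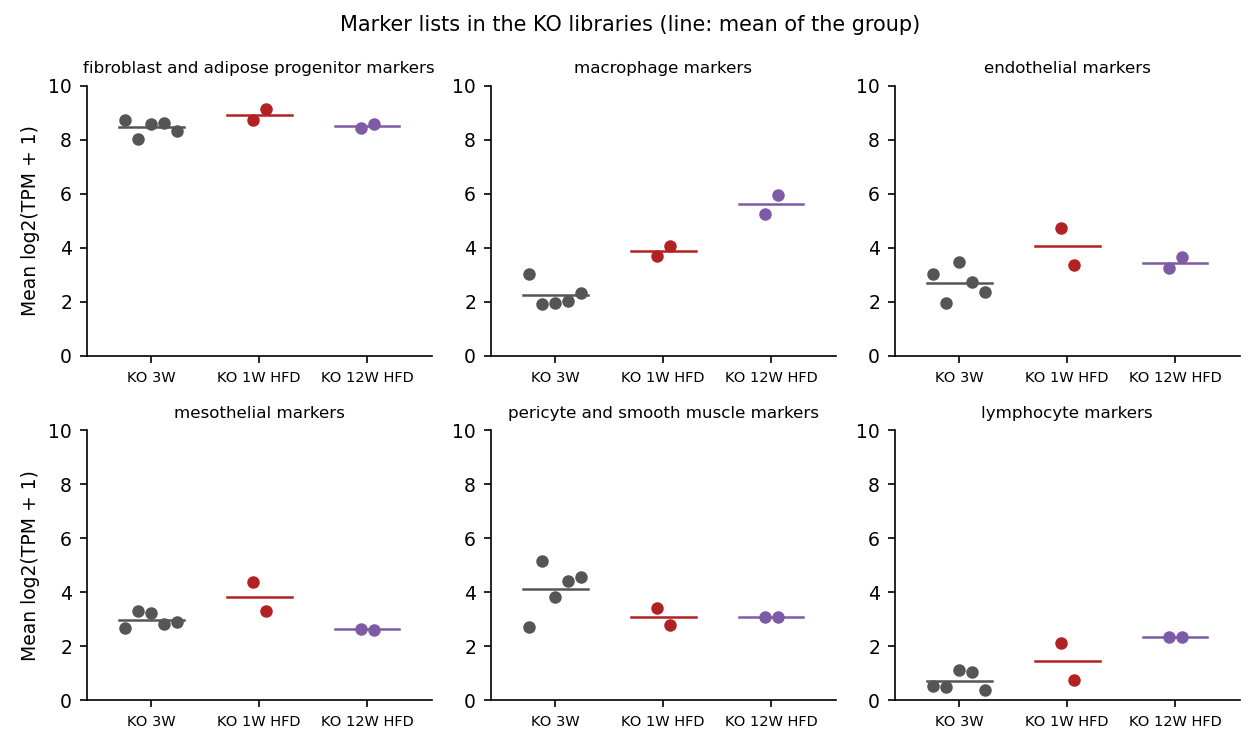
Mean log2(TPM + 1) of 6 marker lists (1 panel each) in every KO library, by group, with a line at the group mean. Macrophage markers lie at 1.91 to 3.03 in KO 3W, 3.71 and 4.06 in KO 1W HFD and 5.24 and 5.98 in KO 12W HFD libraries, while fibroblast and progenitor markers stay between 8.05 and 9.14.

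Markers of other cell types are given by library. Endothelial markers averaged 3.02, 1.97, 3.48, 2.72 and 2.37 at 3W and 4.73 and 3.38 after 1W HFD on the log2(TPM + 1) scale, which overlap. None of the 20 passed, 19 had a positive change, against 53.1% of all genes, and the median was 1.23. Gpihbp1 lay at 0.72 to 22.6 TPM and then at 171 and 39.4 TPM (3.40, limma adjusted p = 0.0938). Mesothelial markers averaged 2.69 to 3.31 at 3W and 4.36 and 3.31 later. Of 17 tested, Lrrn4 and Efemp1 rose (median 0.96), where 0.428% of all genes rose. Lrrn4, a membrane protein of the mesothelium, was listed at 0 in KO 3W replicates 1, 4 and 5, lay at 1.28 and 0.70 TPM in the other two, and at 8.35 and 2.86 TPM after 1W HFD (2.20 ± 0.33 SE, adjusted p = 0.000611; 0.0729 without KO 1W HFD replicate 1). Msln and Upk3b lay at 24.8 and 31.3 TPM in KO 1W HFD replicate 1 and at 1.46 and 3.18 TPM in replicate 2, without passing. Lymphocyte markers averaged 0.39 to 1.10 at 3W and 2.13 and 0.74 later, and none of 24 passed. Neutrophil and mast cell markers averaged 0.02 to 0.37 at 3W and 1.10 and 0.86 later, wholly above the 3W libraries, and none of 15 passed (median 0.70). Ctla2a, a cysteine protease inhibitor whose near-identical copy Ctla2b makes its value uncertain, lay at 0.30 to 14.5 TPM and then at 61.4 and 115 TPM (3.87, adjusted p = 0.0179; 0.0802 and 0.266 without KO 1W HFD replicate 1 or 2). Ppbp, a platelet chemokine, was listed at 0 in all 5 KO 3W libraries and lay at 2.00 and 1.43 TPM later (adjusted p = 0.0257; lost without KO 3W replicate 2 or either KO 1W HFD library, up to 0.277).

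At 3W, some promoters of the risen genes lay outside called open chromatin. At least 1 window was found for 50 of the 67, and 29 of the 50 (58.0%) had a KO 3W peak in both libraries, against 87.8% of all genes. Genes with several windows were counted as above, for peaks and for motifs. Among genes under a KO 3W mean of 5 TPM, 9 of 24 risen genes had one (37.5%) against 69.4% of all, and among those at 5 TPM or more 20 of 26 (76.9%) against 97.4%. These shares carry no test. The genes shown are Car4 and Hsd11b1, with the smallest p among those of the 12 largest rises plotted above that have a single window, and Ccl8, the next with a motif match. Peaks over the windows had 16.3-fold and 5.77-fold enrichment for Car4, 55.0-fold and 23.1-fold for Hsd11b1 and 7.08-fold and 4.81-fold for Ccl8 in the authors' lists. In replicate 2 the Ccl8 peak began at 82115090, so it did not reach the CAGCTG marked below. No peak covered the windows of Dmkn, Ctla2a or Wfdc17. The 250 bases before the start are given 5′ to 3′ on the gene's strand, with the same motifs in capitals; the start of Hsd11b1 in RefSeq lies within the gene span of the deposited table.
Car4 promoter, chr11:84957504-84957753, plus strand: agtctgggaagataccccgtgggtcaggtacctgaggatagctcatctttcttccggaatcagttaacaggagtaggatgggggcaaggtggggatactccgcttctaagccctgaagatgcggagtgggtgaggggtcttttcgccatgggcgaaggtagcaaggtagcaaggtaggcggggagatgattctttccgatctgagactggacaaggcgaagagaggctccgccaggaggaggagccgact
Hsd11b1 promoter, chr1:193242361-193242610, minus strand: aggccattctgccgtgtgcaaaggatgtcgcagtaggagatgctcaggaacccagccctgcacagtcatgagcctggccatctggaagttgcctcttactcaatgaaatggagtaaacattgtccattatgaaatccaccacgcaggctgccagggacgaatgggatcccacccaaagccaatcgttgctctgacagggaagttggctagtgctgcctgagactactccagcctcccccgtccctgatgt
Ccl8 promoter, chr11:82114935-82115184, plus strand: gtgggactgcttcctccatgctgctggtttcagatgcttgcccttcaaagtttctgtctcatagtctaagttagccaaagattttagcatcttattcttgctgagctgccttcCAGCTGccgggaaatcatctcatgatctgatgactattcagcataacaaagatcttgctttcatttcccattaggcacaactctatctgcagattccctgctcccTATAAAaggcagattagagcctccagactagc
Ccl8 held TATAAA 32 bases before its start and CAGCTG at 137 bases, and the other two held none of the 4 motifs. Of the 50 risen genes 20.0% held TATAAA, 22% CAGCTG, 22% TTGCNNAA and 10% TTCNNNGAA, against 8.58%, 14.6%, 9.28% and 7.28% of all genes with a window.

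**Figure D4:**
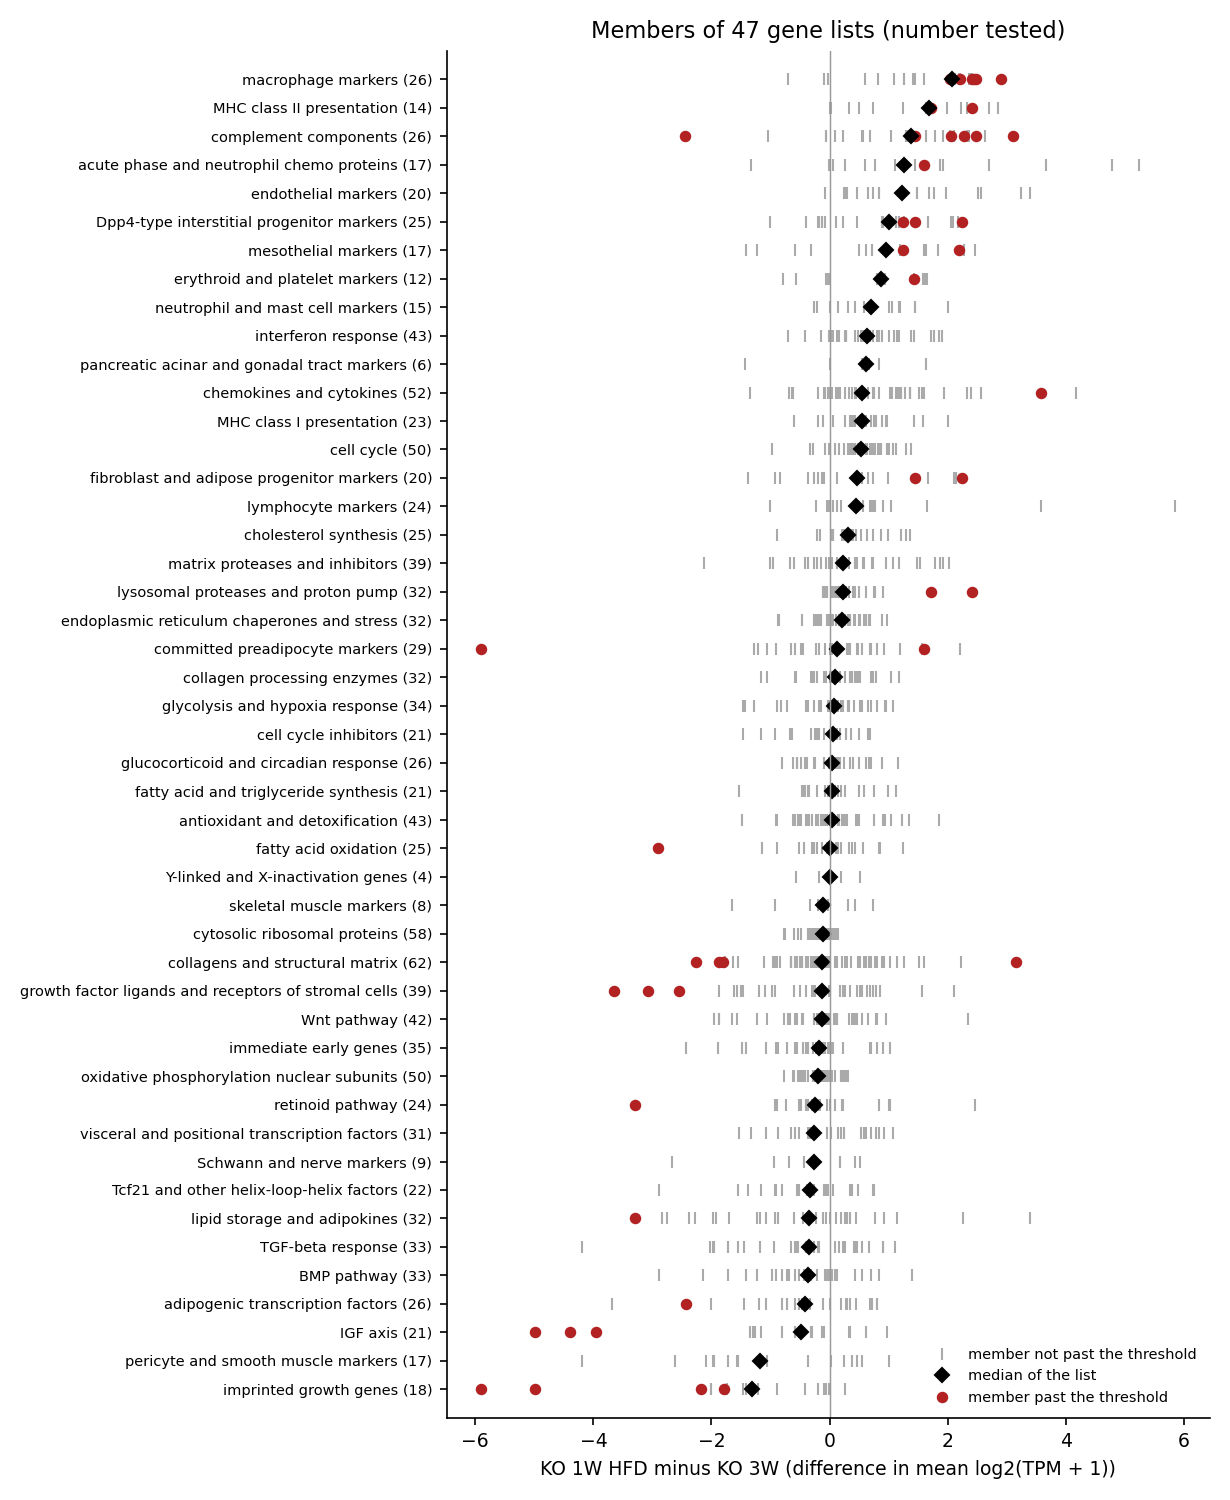
Change between KO 3W and KO 1W HFD (difference in mean log2(TPM + 1)) for the tested members of 47 gene lists, sorted by median (black diamond); red circles are members past the threshold and grey ticks the others, with the number tested in brackets. Macrophage markers have the highest median (2.08) and imprinted growth genes the lowest (-1.31).

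Many lists held no called gene. None of 33 TGF-beta response, 33 BMP or 42 Wnt genes passed (medians -0.35, -0.36 and -0.13). The nearest in each were Tgfbi, a matrix protein induced by TGF-beta (358 to 796 TPM, then 203 and 71.8; limma adjusted p = 0.0884), Id4, a helix-loop-helix inhibitor (2.68 to 45.7 TPM, then 2.05 and 0.58; 0.0748), and Nkd1, a feedback inhibitor of Wnt signalling (11.9 to 25.9 TPM, then 3.68 and 4.23; 0.0669). None of 22 helix-loop-helix factors passed: Twist2 was nearest, at 64.2 to 179.8 TPM and then at 60.5 and 38.6 TPM (-1.16, adjusted p = 0.0634). None of 31 positional transcription factors passed (median -0.27). Of 50 cell cycle genes none passed and 45 had a positive change, against 53.1% of all genes (median 0.54). Their mean log2(TPM + 1) was 4.89, 2.23, 2.92, 2.86 and 3.58 at 3W and 2.92 and 4.70 after 1W HFD, so KO 3W replicate 1 and KO 1W HFD replicate 2 were both high. Ribosomal proteins (58 tested, median -0.11) and nuclear subunits of oxidative phosphorylation (50 tested, median -0.20) had no called member. Immediate early genes, which respond to handling as well as to signals, had none among 35 (median -0.17), with means of 5.68 in KO 3W replicate 1, 7.35 to 7.66 in the other KO 3W libraries and 6.64 and 7.0 later.

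Most genes called in KO cells were called in WT cells too. The WT comparison shares no library with the KO comparison. Both came from the same fit, with a common spread per gene, and the 3W titles pair KO with WT libraries. The calls of the genotypes are therefore not independent. In WT 748 genes were higher (4.78%) and 509 lower (3.25%) after 1W HFD, together 8.03% of those tested, with 11 libraries where KO had 7. Of the 67 genes that rose in KO cells, 62 had a positive WT change, against 51.2% of all genes, and 52 were called in WT (77.6% of the KO calls and 6.95% of the WT calls). Of the 68 that fell, all had a negative WT change, against 47.4%, and 58 were called (85.3% and 11.4%), and none was called in the opposite direction. Seen from WT, 717 of 748 risen genes (95.9%) and 491 of 509 fallen genes (96.5%) had a change of the same sign in KO cells, while 53.1% of all genes had a positive and 46.4% a negative change in KO. The median change of the risen KO genes was 2.20 in KO and 1.61 in WT, and of the fallen ones -2.44 and -1.78; the KO values are those the genes were called on.

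**Figure D5:**
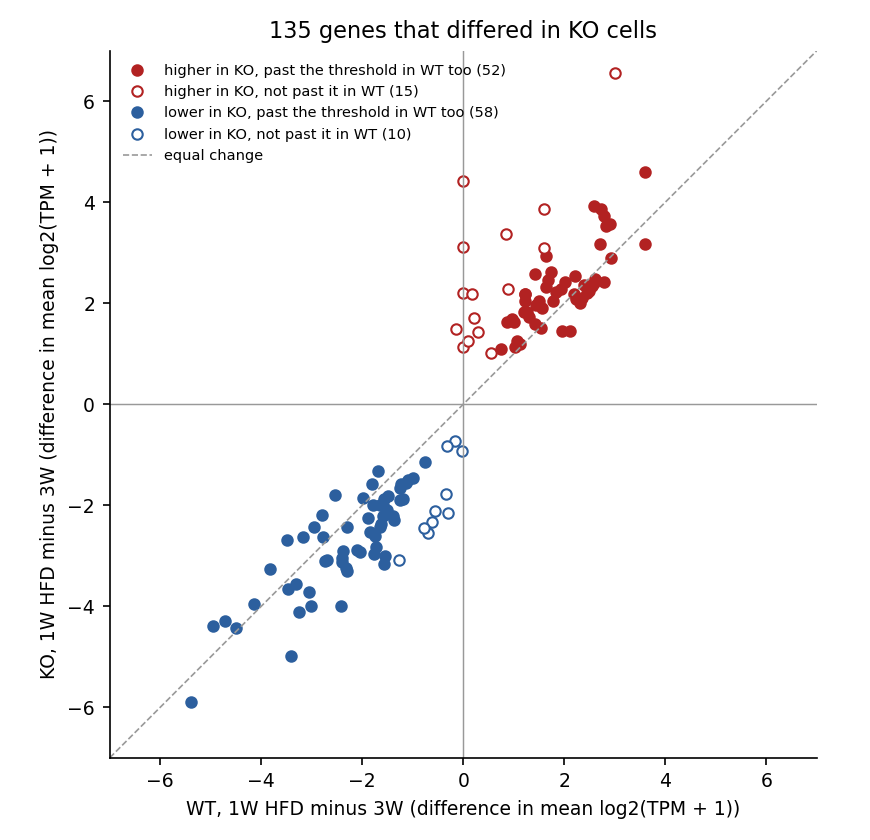
Change in KO (vertical) against change in WT (horizontal), both 1W HFD minus 3W as differences in mean log2(TPM + 1), for the genes called in KO; filled points were called in WT too (52 higher, 58 lower) and open points were not (15 and 10). The dashed line marks equal change, and most points lie in the 2 quadrants where the genotypes share a direction.

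The WT values of leading genes were as follows. Dlk1 lay at 74.2 to 392 TPM (median 195) in the 7 WT 3W libraries and at 4.03, 4.32, 1.98 and 3.41 TPM after 1W HFD (-5.38 ± 0.36 SE, limma adjusted p = 1.67e-10). Mdk lay at 198 to 778 TPM (median 492) and then at 44.7, 59.3, 32.4 and 33.9 TPM (-3.47 ± 0.33 SE, adjusted p = 2.71e-07). Hsd11b1 lay at 31.2 to 159.9 TPM (median 88.2) and then at 638, 219.8, 790.4 and 754 TPM (2.72 ± 0.53 SE, adjusted p = 0.00171). Macrophage markers had a WT median of 1.80 and imprinted growth genes one of -1.05, with 17 and 9 members called. Cfb (1.61 in WT, adjusted p = 0.0715), Chl1 (0.85, 0.413) and Angptl1 (-0.69, 0.330) were called in KO cells only, but the difference of their changes between genotypes did not pass adjustment (each adjusted p = 1).

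Tested directly, the change differed between KO and WT in 1 gene of 15659 (0.00639%), with 413 at an unadjusted p under 0.05 in limma. The 3W titles pair each KO library with 1 or 2 WT libraries, and with that pair as a random block, an alternative chosen after seeing the data, the count was also 1. The median SE of the difference in change was 0.54, against 0.43 for the KO and 0.32 for the WT change. So few calls do not show that the genotypes changed alike. Ighv2-6-8, an immunoglobulin heavy chain variable segment (chromosome 12, 113796138 to 113796567), lay at 19.3 and 21.5 TPM in the KO 1W HFD libraries, was listed at 0 in all 5 KO 3W and all 11 WT libraries of the 2 stages, and lay at 0.48 and 0 TPM in KO 12W HFD (adjusted p = 0.00808 for the difference in change). That call was lost with a pseudocount of 0.1 (adjusted p = 0.225) and with a replicate block (0.330); over the other settings and left-out libraries the adjusted p ran from 7.14e-11 to 0.0375. No fold is given against groups listed at 0, and reads of near-identical segments may be shared. Igha, the constant region of immunoglobulin A, lay at 0 to 0.88 TPM in KO 3W and at 661 and 17.5 TPM after 1W HFD (adjusted p = 0.0190; 0.523 without KO 1W HFD replicate 1), and in WT 1W HFD libraries it was listed at 0 in replicates 1 and 2 and lay at 191 and 39.2 TPM in replicates 3 and 4. Lrrn4, listed at 0 to 0.02 TPM in all 11 WT libraries, came next by unadjusted p (adjusted p = 0.0843). Angptl1 (difference of changes -1.85 ± 0.67 SE, unadjusted p = 0.00984) and Masp1 (-1.66 ± 0.76 SE, 0.0377) fell in KO and lay at 39.5 to 59.6 and at 0.07 to 1.11 TPM in WT 1W HFD against 48.2 to 112 and 0.13 to 2.85 TPM in WT 3W. Without KO 1W HFD replicate 1 or 2, 5 and 11 genes had a larger change in KO, and without replicate 2 1 gene had a smaller one.

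The 2 KO libraries after 12W HFD show where these genes stood later; they were compared with the same KO 3W libraries, so the 2 comparisons share controls. Of all genes tested, 3.19% were higher and 1.96% lower after 12W HFD than at 3W. Dlk1 was listed at 0 in both, Igf2 lay at 3.33 and 1.45 TPM and Igfbp3 at 20.1 and 10.2 TPM, near their 1W HFD values. Mdk lay at 285 and 229 TPM, above both 1W HFD libraries and near the lowest KO 3W library (12W HFD minus 3W -0.90, limma adjusted p = 0.324). Dpp4 lay at 18.9 and 10.6 TPM and Cd55 at 177 and 266 TPM, within the KO 3W range (-0.33 and 0.12, adjusted p = 0.874 and 0.935). Hsd11b1 lay at 132 and 296 TPM, between the groups (1.70, adjusted p = 0.201). Macrophage genes had higher values: Lyz2 lay at 736 and 3549 TPM and Ctss at 345 and 1014 TPM, and the summed macrophage markers at 2690 and 7340 TPM. Cd163 lay at 0.69 and 0.07 TPM, near its KO 3W level. The difference between 1W and 12W HFD was not tested.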

How the data were processed

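RNA-seq and ATAC-seq were made from sorted Tcf21 lineage cells of mouse visceral fat. Per the file headers and values, the authors deposited TPM per gene in 2 tables, WT and KO, with the same 25746 genes. The submitters' processing notes name Trim Galore 0.6, FastQC, STAR 2.5.3a, RSEM, Bowtie2 2.3, MACS2 and mm10, without roles. The sources do not say whether counting used strand. The deposited KO 3W ATAC peak lists (84876 and 78643 peaks) give each peak's fold enrichment, a ratio, as the authors' own value.

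Genes at 1 TPM or more in at least 2 of 29 RNA libraries were kept (15659), and limma 3.58.1 (R 4.3.3) modelled log2(TPM + 1) by 8 group means, with eBayes and a trend (21 residual degrees of freedom), two-sided, Benjamini-Hochberg threshold 0.05. A symbol on more than 1 row (35 symbols) was read from its row of highest mean. Apart from levels of single genes set side by side, WT and KO tables were not compared directly. Differences were taken within each table and then compared. The fit was tested on simulated data. Tcf21 was also tested by exact permutation.

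The members, the 47 gene lists (35 pathways, 12 marker lists) and the tests were chosen with earlier results of these data known. Named genes were the 12 largest called changes per direction that did not overlap and reached a mean of 5 TPM, without immunoglobulin, haemoglobin and unnamed genes; up to 4 called members per list in its main direction and 2 in the other, or the 2 of smallest p; Tcf21, Dlk1, Igf2, Pdgfra and Pparg; and genes called for the KO against WT difference. C3, Fcgr3, Igha, Itm2a, Prlr and list members given to complete a group were added after their values were seen. List symbols without a row are not analysed here. Promoters were matched by symbol to RefSeq windows (GRCm38.p6), peaks by an overlap of 1 base. Alternatives covered the pseudocount (0.1), filters, scalings, libraries in the fit, a replicate block, a random block for the pair number in the 3W titles (added after seeing the data), array weights and leaving out each library.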

Additional observations from a re-analysis of the deposited data

Results flagged for a closer look

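In 9 of 67 groups of named genes and marker lists, 1 of the 5 KO 3W libraries stood apart by Dixon's criterion. Chance alone meets it in about 1 of 20 independent groups of normally distributed values. Most groups here held TPM values not on a log scale and all shared the same libraries, so that rate cannot be applied to them. KO 3W replicate 1 was high for Wfdc17 (22.3 TPM against 0.49 to 4.09 in the others), Clec10a (6.02 against 0.55 to 1.73), Lyz2 (140 against 16.7 to 48.6) and Pparg (79.4 against 19.4 to 34.2). KO 3W replicate 4 was high for Nrtn (48.8 against 8.11 to 17.9), Igha (0.88 against 0 to 0.17) and Mfap2 (3730 against 1710 to 2210). KO 3W replicate 2 was low for Slc7a10 (7.89 against 28.5 to 36.6) and high for Angptl1 (392 against 95.0 to 151). The change of Ighv2-6-8 differed between KO and WT by 4.42 on the log2(TPM + 1) scale (limma adjusted p = 0.00808), a value that depends on the pseudocount because every KO 3W and WT library of the contrast lists the gene at 0.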

How the results depend on the processing

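With 2 libraries against 5, the counts of calls moved with the spread that the model used. The main counts of 67 higher and 68 lower genes became 35 and 58 with a pseudocount of 0.1 (37.6% of calls higher, against 49.6%), 23 and 14 from the 9 KO libraries alone (62.2% higher), 40 and 9 from the 7 libraries compared (81.6% higher), and 183 and 158 with array weights. With a replicate block the counts were 41 and 37. Deviations of same-numbered libraries correlated at -0.14 and -0.12, but with 2 KO 1W HFD libraries the deviations of 1 mirror those of the other. These values therefore cannot show whether same-numbered libraries were paired. The titles' pair numbers tie KO 3W to WT 3W libraries; deviations within the 6 pairs correlated at -0.13 to 0.48, and with the pair as a random block (correlation 0.21), chosen after seeing the data, 57 genes were higher and 67 lower, with C3, Ctss, Fcgr3, Masp1 and Wfdc17 the named genes that lost their call (adjusted p = 0.0547 to 0.0686). Leaving out 1 library gave 30 to 130 higher and 26 to 142 lower genes, the highest of both without KO 3W replicate 1 and the lowest of the lower ones without either KO 1W HFD library. The other filters and scalings stayed within 1.5 times of the main counts. Genes with a larger change in KO than in WT numbered 0 with a pseudocount of 0.1 or a replicate block, 8 without a filter or from the libraries compared, 2 with quantile scaling or array weights, and 1 to 11 without 1 library; those with a smaller change numbered 0 to 1. Tcf21 ran from -1.85 to -0.91 without 1 library. Of 53 called genes tried, none changed direction, 8 kept their call without each library and 5 (Dlk1, Mdk, Ighv2-6-8, Itm2a and Prlr) under every setting. The change of Pparg ran from -1.18 to 0.01 without 1 library. List medians moved by over 1 SD in 25 of 846 settings. The cause of these shifts was not tested. Depth is unknown, so counting error at low TPM could not be given.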
